A study of Mus musculus with 22 samples.

Results

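Retinoic acid synthesis, breakdown and binding were followed through 10 genes in mouse stem cell cultures. The genes are Rdh10, Dhrs3, Aldh1a2, Cyp26a1, Cyp26b1, Cyp26c1, Crabp1, Crabp2, Rarb and Rarg. They were picked by gene symbol, and all 10 were found among the 55141 genes of the gastruloid count tables and in the mES and endoderm tables. The series holds 22 RNA-seq libraries in 10 groups. Mouse embryonic stem (mES) cells of genotype wt (wild type) and Hox-/- were kept in serum medium that held LIF, the GSK-3 inhibitor CHIR99021 (3 µM) and the MEK inhibitor PD0325901 (1 µM). Endoderm cultures of both genotypes received 100 ng/ml Activin A with 3 µM CHIR99021 at 24 h and again at 72 h, and were collected at 120 h. Gastruloids, small stem cell aggregates grown as models of the post-implantation embryo, were sequenced at 96 h and 120 h. Activin A gastruloids were made from both genotypes, Chiron gastruloids from wild type only, and no dose is given for either. The endoderm groups hold 3 libraries each and the other groups 2 each. The labels call endoderm cultures and gastruloids mixed cells.

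Retinoic acid is made from vitamin A. Retinol is oxidised to retinaldehyde by Rdh10, a step that Dhrs3 runs in reverse, and Aldh1a2 oxidises retinaldehyde to retinoic acid. The Cyp26 enzymes break retinoic acid down. Crabp1 and Crabp2 carry it in the cytoplasm, where Crabp2 is known to pass it to the receptors. The retinoic acid receptors, Rarb and Rarg among them, bind DNA with RXR partners at direct repeats of a short half-site. In the embryo the trunk mesoderm makes retinoic acid with Aldh1a2, the tail end is kept low in it by Cyp26a1, and both Cyp26a1 and Rarb are textbook targets of the receptors.

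The receptor sites of these textbook targets are shown first. Both genes were known as targets beforehand, so finding their sites is a description and not a test. RefSeq promoters (GRCm38.p6, from 250 bases before to 50 after a transcription start) were found for 8 of the 10 genes, with 11 start sites. Rdh10 and Crabp2 had no entry. Each promoter was searched on both strands for direct repeats of the half-sites AGGTCA or AGTTCA or GGGTCA or GGTTCA with 5 bases between them (DR5), and with 1 or 2 bases between them (DR1, DR2). Of the genes with an entry, 2 held a DR5, Cyp26a1 and Rarb, and none held a DR1 or DR2. Among all 32851 mouse promoters of that length in RefSeq, 0.0974% held a DR5, 0.222% a DR1 and 0.268% a DR2. The repeats are written below 5′ to 3′ in the direction in which the half-sites read, with the half-sites in capitals.
Cyp26a1: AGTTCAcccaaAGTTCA
Rarb: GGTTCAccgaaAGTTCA
The Rarb site lies at chr14:16575513-16575529 on the minus strand, the strand of the gene. It begins 53 bases before the RefSeq start, and the GENCODE models place it in the first exon of the longer transcripts Rarb-201 and Rarb-207. The Cyp26a1 site lies at chr19:37697776-37697792 and reads on the strand opposite to the gene, from 32 to 16 bases before the RefSeq start, outside any annotated exon of the gene. It is shown in its setting, with the 240 bases that end just before the first annotated exon (chr19:37697558-37697797, plus strand), where the capitals are the same half-sites read on the strand of the gene.
Cyp26a1 upstream: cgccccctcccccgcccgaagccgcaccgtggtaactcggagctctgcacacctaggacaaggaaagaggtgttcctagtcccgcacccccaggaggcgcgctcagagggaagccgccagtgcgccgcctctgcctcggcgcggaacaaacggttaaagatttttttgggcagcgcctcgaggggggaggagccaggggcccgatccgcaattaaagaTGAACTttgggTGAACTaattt
The TGAACT pair on the strand of the gene is the AGTTCA pair of the line above. A match describes these letters, and no binding was measured in these libraries.

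Library totals ran from 9.11 to 28.8 M (mega) counts. Gastruloids at 96 h were sequenced more deeply (15 to 28.8 M) than at 120 h (9.11 to 11.9 M), so time and depth go together there. The 39 clustered Hox genes, the targets of the deletion, summed to 30.4 to 35.7 CPM (each count divided by the library total in M) in wild-type and 0.448 to 1.34 CPM in Hox-/- mES cells. Their sums were 828 to 877 against 22.5 to 28.6 CPM in endoderm cultures, 625 to 660 against 102 to 104 CPM in Activin A gastruloids at 96 h, where the ratio between genotypes was smallest, and 1167 to 1190 against 63.8 to 69.5 CPM at 120 h, each with wild type first. Summed levels of 8 pluripotency genes (6986 to 7390 CPM in mES cells, 36.5 to 1102 CPM elsewhere) and of 10 definitive endoderm genes (24.1 to 37.1 CPM in mES cells, 575 to 1006 CPM in endoderm cultures) matched the labels of those groups. The labels name no clone, so genotype and cell line cannot be told apart. Nothing states that replicates came from separate cultures, so p-values measure only the spread between these libraries, which may be technical. The mES and endoderm tables were counted in separate files, and levels set across files are CPM from each library's own total.

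mES cells of both genotypes held Rarg and low Crabp1, and little of the rest. Endoderm cultures had gained Cyp26a1 and Crabp2 without much Aldh1a2 or Rarb. Gastruloids had all of these, in proportions that depended on treatment, time and genotype. Hox-/- Activin A gastruloids held less Cyp26a1, Crabp1, Crabp2 and Rdh10 than wild type at both times, while their Aldh1a2 was lower at 96 h and higher at 120 h. The plot of all 10 genes by library shows these levels.

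**Figure D1:**
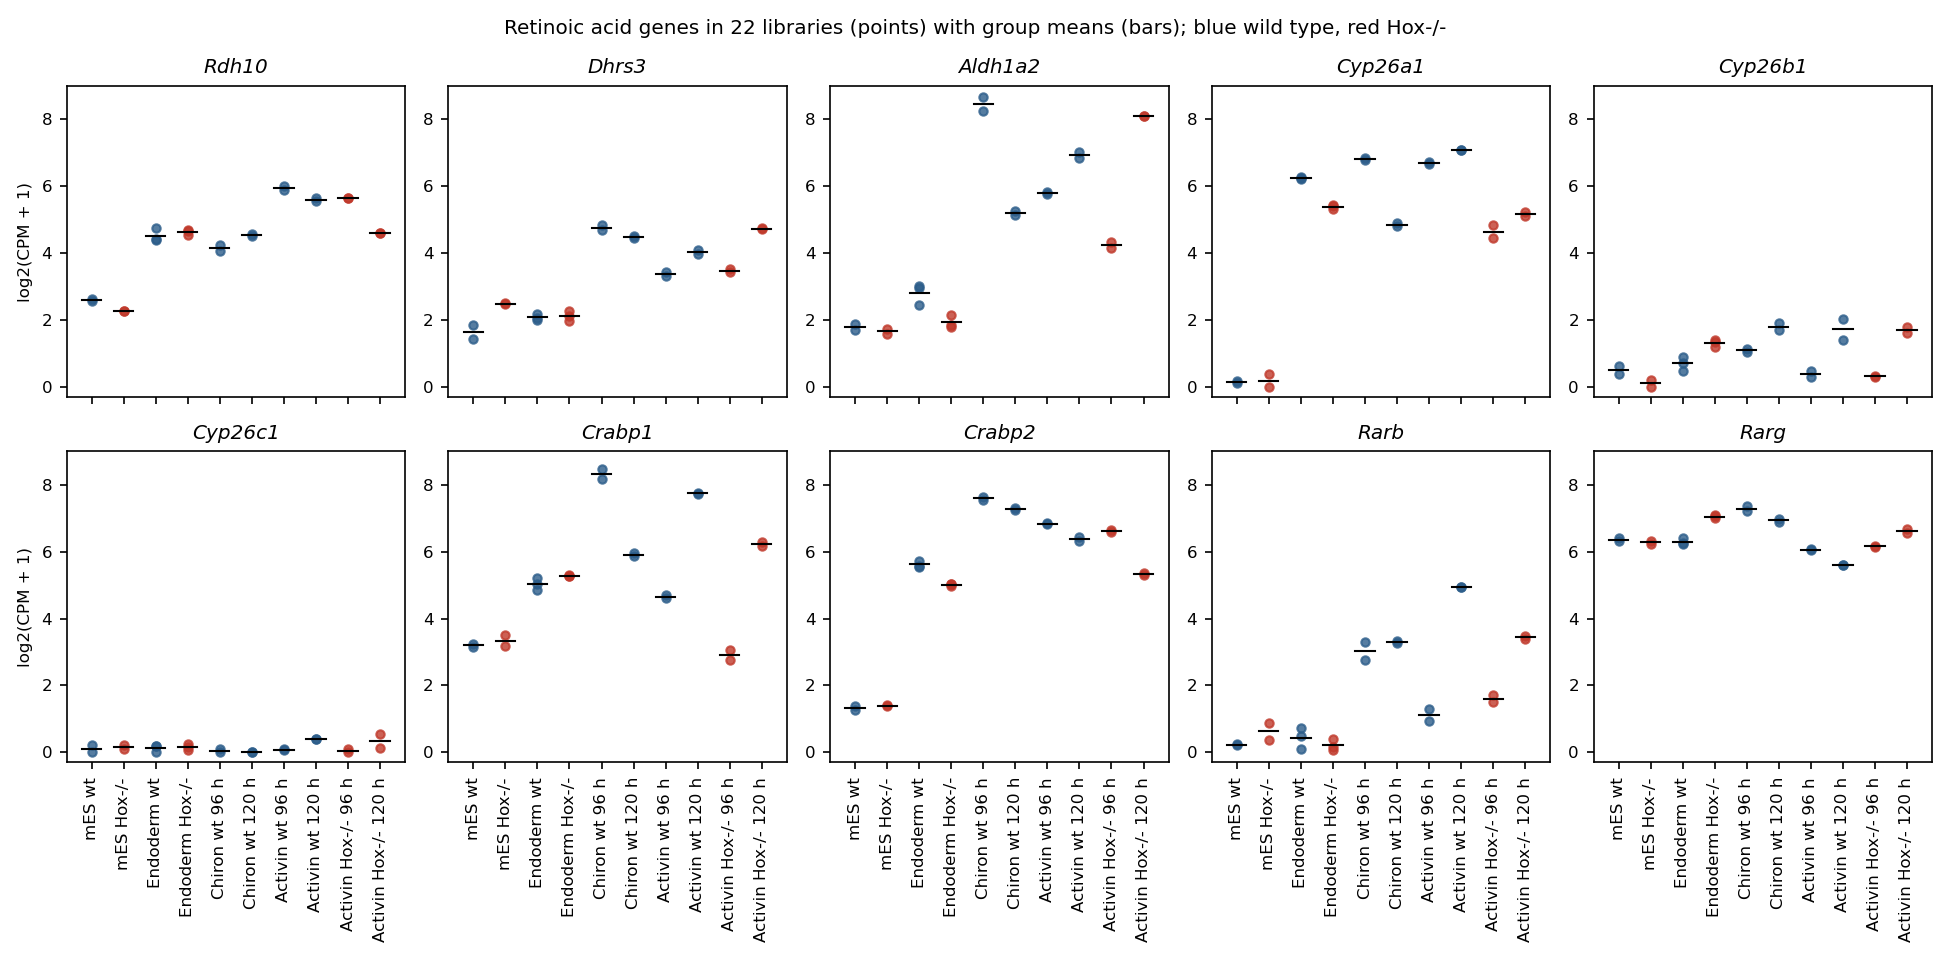
Level of each of the 10 genes in each of 22 libraries, as log2(CPM + 1) on the vertical axis, by group on the horizontal axis; points are libraries, bars are group means, blue is wild type and red is Hox-/-. Cyp26c1 stays near 0 in every group, while Aldh1a2 spans from 2.02 CPM in a Hox-/- mES library to 408 CPM in a wild-type Chiron library at 96 h.

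Rdh10 (ENSMUSG00000025921, mm10, chromosome 1, 16105774 to 16133734, plus strand) makes retinaldehyde. It was at 5.25 and 4.90 CPM in the wild-type and 3.81 and 3.87 CPM in the Hox-/- mES libraries. Wild-type endoderm cultures held 26.1, 20.3 and 19.8 CPM and Hox-/- endoderm cultures 24.9, 22.5 and 24.6 CPM, so the genotypes overlapped there. Rdh10 in Activin A gastruloids was at 62.9 and 58.6 CPM in wild type and 49.0 and 49.0 CPM in Hox-/- at 96 h. At 120 h it was at 48.8 and 46.0 CPM in wild type and 23.3 and 23.3 CPM in Hox-/-. Chiron gastruloids held less at both times, 15.9 and 17.9 CPM at 96 h and 22 and 23.0 CPM at 120 h, and the Hox-/- Activin A libraries at 120 h were thus near the Chiron level, a comparison across tables that was not tested. The genotype difference in Activin A gastruloids was 1.20-fold at 96 h (log2 fold change -0.26, SE 0.0537) and 1.88-fold at 120 h (-0.91, SE 0.0828, edgeR adjusted p 1.78e-13), lower in Hox-/- each time.

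Dhrs3 (ENSMUSG00000066026, chromosome 4, 144892827 to 144928209, plus strand) returns retinaldehyde to retinol. It was highest in Chiron gastruloids at 96 h, with 24.9 and 27.7 CPM, and in Hox-/- Activin A gastruloids at 120 h, with 25.2 and 25.7 CPM, and these groups overlapped. Chiron gastruloids at 120 h held 20.8 and 21.8 CPM. Wild-type Activin A gastruloids held 9.78 and 8.99 CPM at 96 h and 14.7 and 16.1 CPM at 120 h. Their Hox-/- counterparts at 96 h held 9.77 and 10.4 CPM, an edgeR difference of 0.16 (log2, SE 0.109) that did not pass the test and was below 0 in the fits on the authors' FPKM. By 120 h Dhrs3 was 1.78-fold higher in Hox-/- (log2 fold change 0.83, SE 0.11, edgeR adjusted p 7.48e-09). In mES cells it was at 1.73 and 2.64 CPM in wild type and 4.56 and 4.71 CPM in Hox-/-. That 2.14-fold difference (log2 1.10, SE 0.242, edgeR adjusted p 0.000849) was the only call among these genes in mES cells. It missed the threshold under DESeq2 (adjusted p 0.104), in both limma fits on FPKM (0.181 and 0.185), and without wild-type replicate 1 (0.0704).

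Aldh1a2 (ENSMUSG00000013584, chromosome 9, 71215789 to 71296243, plus strand) makes retinoic acid itself. In mES cells it was at 2.26 and 2.72 CPM in wild type and 2.02 and 2.35 CPM in Hox-/-. Endoderm cultures held 6.73, 4.42 and 7.08 CPM in wild type and 2.61, 3.44 and 2.46 CPM in Hox-/-, a 2.11-fold lower level in Hox-/- with no overlap (log2 fold change -1.08, SE 0.206, edgeR adjusted p 0.000695). Gastruloids held more. Chiron gastruloids at 96 h were highest of all, at 408 and 301 CPM, a spread between replicates of 75.4 CPM (SD, n = 2), and fell to 34.4 and 37.5 CPM at 120 h. Wild-type Activin A gastruloids went the other way, from 54.1 and 55.8 CPM at 96 h to 129 and 114 CPM at 120 h.

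In Hox-/- Activin A gastruloids Aldh1a2 started lower and ended higher. It was at 19.1 and 16.7 CPM at 96 h, 2.93-fold below wild type (log2 fold change -1.55, SE 0.0685, edgeR adjusted p 6.18e-25). At 120 h it was at 273 and 273 CPM, 2.42-fold above wild type (1.27, SE 0.0493, edgeR adjusted p 1.41e-27). The rise from 96 h to 120 h was therefore 14.9-fold in Hox-/- and 2.10-fold in wild type. The difference between these rises was tested itself, at 2.82 on the log2 scale (SE 0.084, edgeR adjusted p 1.44e-31). In these bulk libraries, fewer cells of a type and less RNA per cell cannot be told apart.

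Markers of other cell types moved in the same comparison. Summed levels of 8 presomitic and somitic genes, markers of presomitic mesoderm and somites, were 131 to 139 CPM in wild type and 153 to 169 CPM in Hox-/- at 96 h. At 120 h they were 458 to 463 and 875 to 881 CPM. Gene by gene, 1 of the 8 was called higher in Hox-/- and 3 lower at 96 h (median log2 fold change -0.30), so the sum and the median had opposite signs there, while 7 were called higher at 120 h (1.40). Across the groups the order was not that of Aldh1a2, since Chiron gastruloids summed to 683 to 809 CPM for these genes at 96 h and 890.0 to 939 CPM at 120 h. None of the 8 genes was at 0 in a gastruloid group. The part of these cells in the Aldh1a2 difference was not tested.

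Cyp26a1 (ENSMUSG00000024987, chromosome 19, 37697798 to 37701536, plus strand) is the main enzyme of retinoic acid breakdown in the early embryo. mES cells barely held it, with 2 and 1 counts in the wild-type and 4 and 0 counts in the Hox-/- libraries. In endoderm cultures it was at 73.0, 75.5 and 76.7 CPM in wild type and 41.2, 38.6 and 42.5 CPM in Hox-/-. With so few counts in mES cells, the ratio of pooled counts gives the size, 699.5 in wild type (exact 95% interval 239 to 3394) and 257.9 in Hox-/- (101 to 947), and such intervals cover counting error only. Within endoderm cultures Cyp26a1 was 1.83-fold lower in Hox-/- (log2 fold change -0.87, SE 0.0589, edgeR adjusted p 3.36e-08).

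Cyp26a1 was highest in wild-type Activin A gastruloids at 120 h, with 136 and 134 CPM, after 100.2 and 105 CPM at 96 h. The Hox-/- libraries were lower at both times, at 27.6 and 20.9 CPM at 96 h and 33.8 and 36.8 CPM at 120 h. The differences were 4.0-fold at 96 h (log2 fold change -2.0, SE 0.0641, edgeR adjusted p 8.55e-31) and 3.53-fold at 120 h (-1.82, SE 0.071, edgeR adjusted p 1.97e-27). Unlike for Aldh1a2, the test of the difference between the rises with time did not pass, at 0.18 on the log2 scale (SE 0.101, edgeR adjusted p 0.164), although 2 settings did call it (0.26 with no filter on low counts, 0.42 without Hox-/- replicate 1 at 96 h). Chiron gastruloids had 109 and 115 CPM at 96 h, a little above Activin A, and 27.2 and 28.7 CPM at 120 h. The small difference between treatments at 96 h (-0.19, SE 0.0514) was lost in both limma fits on FPKM, without Chiron replicate 2 and without Activin A replicate 1 (adjusted p 0.063 to 0.161). At 120 h Activin A gastruloids held 4.65-fold more (2.22, SE 0.0693).

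The definitive endoderm list moved beside Cyp26a1 in the genotype comparisons. Its summed level was 743 to 841 CPM in wild-type and 301 to 304 CPM in Hox-/- Activin A gastruloids at 96 h, and 915 to 916 and 182 to 188 CPM at 120 h. In endoderm cultures it was 990.0 to 1006 CPM in wild type and 575 to 627 CPM in Hox-/-. None of its 10 genes was at 0 in these groups. Caudal progenitor genes, 6 markers of the tail end, went the other way from Cyp26a1 at 96 h, with sums of 2762 to 2881 CPM in wild type and 3645 to 3682 CPM in Hox-/- and 5 of 6 called higher, and in endoderm cultures, with 399 to 454 and 578 to 637 CPM, 5 called higher and 1 lower. At 120 h they summed to 531 to 536 and 512 to 528 CPM, with 4 called higher and 1 lower. Pluripotency genes were lower in Hox-/- endoderm cultures, at 244 to 263 CPM against 829 to 972 CPM in wild type, where all 8 were called lower (median log2 fold change -1.83). In Activin A gastruloids they summed to 1075 to 1102 and 939.5 to 957 CPM at 96 h and to 124 to 125 and 36.5 to 38.6 CPM at 120 h, wild type first. The part of these cell types in the Cyp26a1 differences, or in the other genotype differences in endoderm cultures, was not tested. Wild-type Chiron gastruloids at 96 h, which differ in treatment, held Cyp26a1 within 1.14-fold of wild-type Activin A gastruloids. The endoderm list summed to 188 to 190.5 CPM there and the caudal progenitor genes to 1451 to 1691 CPM. The part of cell types in that comparison was not tested either.

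The other Cyp26 genes were scarce. Cyp26b1 (ENSMUSG00000063415, chromosome 6, 84571414 to 84593908, minus strand) stayed at or below 3.13 CPM. It was highest at 120 h in all gastruloids, at 2.26 and 2.76 CPM in Chiron, 3.13 and 1.65 CPM in wild-type Activin A and 2.50 and 2.06 CPM in Hox-/- Activin A libraries, which overlapped. At 96 h the Chiron libraries held 1.07 and 1.21 CPM, wild-type Activin A 0.222 and 0.388 CPM and Hox-/- Activin A 0.234 and 0.267 CPM. The treatment difference at 96 h was 3.81-fold (log2 fold change -1.93 for Activin A against Chiron, SE 0.409, edgeR adjusted p 0.00028), on 5 and 10 counts in the Activin A libraries. Endoderm cultures held 0.406, 0.660 and 0.875 CPM in wild type and 1.31, 1.54 and 1.64 CPM in Hox-/- (2.28-fold, log2 1.19, SE 0.317, edgeR adjusted p 0.00711), a call that DESeq2 put at 0.0521. Hox-/- mES cells had 2 counts of Cyp26b1 in all, so its ratio to them in Hox-/- endoderm was 18.8 with an exact 95% interval of 5.03 to 158.

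Cyp26c1 (ENSMUSG00000062432, chromosome 19, 37685581 to 37693398, plus strand) lies beside Cyp26a1 on the same strand. No library held more than 5 counts of it, and it passed the filter on low counts in no comparison. The Chiron libraries at 120 h had 0 counts, which allows up to 0.251 and 0.318 CPM. Its highest level was 0.468 CPM, in a Hox-/- Activin A library at 120 h, so differences in Cyp26c1 were not detectable at this depth. Among the 3 breakdown genes, Cyp26a1 thus had most of the counts outside mES cells.

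Crabp1 (ENSMUSG00000032291, chromosome 9, 54764748 to 54773110, plus strand) binds retinoic acid in the cytoplasm and is known to aid its breakdown. It was at 8.50 and 7.93 CPM in wild-type and 10.5 and 7.98 CPM in Hox-/- mES cells. Endoderm cultures held 27.8, 32.1 and 36.0 CPM in wild type and 37.4, 37.8 and 38.9 CPM in Hox-/-. That 1.19-fold difference (log2 0.26, SE 0.0833, edgeR adjusted p 0.0214) was not called in the limma fits on FPKM or without wild-type replicate 1, wild-type replicate 2 or Hox-/- replicate 3 (adjusted p 0.0696 to 0.137). Chiron gastruloids at 96 h held 351 and 285 CPM and dropped to 57.2 and 61.0 CPM at 120 h.

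Crabp1 in Activin A gastruloids rose with time in both genotypes and was lower in Hox-/- throughout. Wild type went from 25.1 and 23.3 CPM at 96 h to 210.4 and 215 CPM at 120 h, an 8.35-fold rise. Hox-/- went from 7.34 and 5.75 CPM to 77.6 and 70.8 CPM, an 11-fold rise. The genotype differences were 3.49-fold at 96 h (log2 fold change -1.80, SE 0.098, edgeR adjusted p 2.97e-21) and 2.65-fold at 120 h (-1.41, SE 0.054, edgeR adjusted p 1.04e-27). The difference between the rises, 0.40 on the log2 scale (SE 0.119, edgeR adjusted p 0.00627), was not called in the limma fits on FPKM or without Hox-/- replicate 2 at 96 h (adjusted p 0.108 to 0.142). Neural genes, a set of 8 that includes Sox1 and Pax6, summed to 105 to 106 CPM in wild type and 32.8 to 35.3 CPM in Hox-/- at 120 h, with 7 called lower and 1 higher. At 96 h the sums were 47.7 to 51.4 and 46.9 to 53.0 CPM, over members that moved both ways (3 called higher and 2 lower, median log2 fold change 0.59). Their part in the Crabp1 differences was not tested.

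Crabp2 (ENSMUSG00000004885, chromosome 3, 87948666 to 87953376, plus strand) delivers retinoic acid to the receptors. mES cells held 1.59 and 1.40 CPM in wild type and 1.64 and 1.60 CPM in Hox-/-. Endoderm cultures held 45.9, 52.2 and 46.5 CPM in wild type and 31.6, 31.6 and 30.2 CPM in Hox-/- (1.54-fold lower, log2 fold change -0.62, SE 0.0671, edgeR adjusted p 3.9e-06). Against mES cells of the same genotype the gain in endoderm cultures was 29.4-fold in wild type and 18.1-fold in Hox-/-. Chiron gastruloids held the most, 188 and 196 CPM at 96 h and 157 and 149.8 CPM at 120 h. Activin A gastruloids fell with time, from 114 and 112 CPM to 78.8 and 85.3 CPM in wild type and from 98.6 and 94.5 CPM to 38.3 and 39.7 CPM in Hox-/-. The genotype difference was 1.95-fold at 120 h (-0.96, SE 0.0661, edgeR adjusted p 1.35e-17), while that at 96 h (-0.17, SE 0.0443) was not called by DESeq2 (adjusted p 0.0716). The fall with time was larger in Hox-/- by 0.79 on the log2 scale (-0.79, SE 0.0799, edgeR adjusted p 1.43e-11).

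The Rarb counts need care before they are used. Rarb (ENSMUSG00000017491, chromosome 14, 16430839 to 16819156, minus strand) shares exon sequence with the antisense genes Top2b (1793 bp of overlap) and Gm48162 (227 bp). The library kit kept strand, but whether the counting used strand is not given in the sources used here, so Rarb reads could include theirs. Rarb was also listed at 0 in the authors' FPKM in all 22 libraries, as were 581 of 15278 genes with at least 100 counts in the Activin A table, so the FPKM fits give no value for it. Top2b was at 52.0 to 246 CPM over all libraries, and its own values stand beside the Rarb results below.

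Rarb, a receptor whose gene is a textbook retinoic acid target, was at or under 0.840 CPM in every mES and endoderm library, which is at most 10 counts. Chiron gastruloids held 8.86 and 5.83 CPM at 96 h and 8.63 and 9.12 CPM at 120 h. Wild-type Activin A gastruloids went from 0.933 and 1.47 CPM at 96 h to 29.6 and 29.9 CPM at 120 h, a 23.0-fold rise (log2 4.52, SE 0.159, edgeR adjusted p 8.2e-30), while Top2b changed by -0.18. Hox-/- Activin A gastruloids went from 1.82 and 2.27 CPM to 10.2 and 9.54 CPM, a 4.83-fold rise, while Top2b changed by 0.03. At 120 h Rarb was 2.79-fold lower in Hox-/- (-1.48, SE 0.127, edgeR adjusted p 2.77e-14), and Top2b was higher there by 0.52. At 96 h Rarb was 1.70-fold higher in Hox-/- (0.77, SE 0.258, edgeR adjusted p 0.015), a call lost without wild-type replicate 1 (0.193) or Hox-/- replicate 2 (0.111). Top2b was called higher in the same comparison, by 0.30 (edgeR adjusted p 5.73e-08), and its part in the Rarb counts was not tested. The rise of Rarb with time differed between genotypes by -2.25 on the log2 scale (SE 0.292, edgeR adjusted p 1.25e-08).

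Rarg (ENSMUSG00000001288, chromosome 15, 102234938 to 102257517, minus strand), the receptor that stem cells already make, varied least. Its lowest library held 47.2 CPM and its highest 163 CPM. mES cells held 83.5 and 78.3 CPM in wild type and 79.5 and 73.6 CPM in Hox-/-, with overlap. In endoderm cultures it was at 76.2, 73.7 and 84.6 CPM in wild type and 136, 127 and 132 CPM in Hox-/-, 1.70-fold higher (log2 0.76, SE 0.06, edgeR adjusted p 1.68e-07). Chiron gastruloids held 148 and 163 CPM at 96 h and 119 and 126 CPM at 120 h, above every Activin A library. Wild-type Activin A gastruloids fell from 66.1 and 64.9 CPM to 47.2 and 47.2 CPM, whereas Hox-/- rose from 69.8 and 71.2 CPM to 102 and 93.9 CPM. The 120 h difference was 2.24-fold (1.16, SE 0.0628, edgeR adjusted p 1.22e-21). The 96 h difference (0.16, SE 0.0496) was not called with scaling by total counts, without the filter on low counts, with DESeq2 or in the limma fits on FPKM (adjusted p 0.0867 to 0.507), nor without wild-type replicate 2 (0.0814). The opposite trends with time differed by 1.01 on the log2 scale (SE 0.0805, edgeR adjusted p 7.96e-15).

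Counted over the 10 genes, the genotype comparisons read as follows, where a call is an edgeR adjusted p under 0.05 over all genes tested. In mES cells 6 genes passed the filter and 1, Dhrs3, was called, higher in Hox-/-, beside 23.2% of all genes tested (12.4% higher). In endoderm cultures 6 of 8 tested were called, with Cyp26b1, Rarg and Crabp1 higher and Aldh1a2, Cyp26a1 and Crabp2 lower in Hox-/-, beside 46.2% of all genes (23.1% in each direction). In Activin A gastruloids at 96 h 7 of 9 were called, 2 higher (Rarb, Rarg) and 5 lower, beside 38.9% of all genes (22.2% higher and 16.7% lower). At 120 h 8 of 9 were called, 3 higher (Aldh1a2, Dhrs3, Rarg) and 5 lower, beside 50.4% (24.9% higher and 25.5% lower). The median log2 fold change of the genes tested was -0.26 at 96 h and -0.91 at 120 h, against 0.03 and -0.02 over all genes. Cyp26a1 and Crabp2 were called lower in Hox-/- in all 3 differentiated cultures, and of the 10 genes Cyp26a1 alone was lower by at least 1.5-fold in each. The Crabp2 call at 96 h was not made by DESeq2 (adjusted p 0.0716). The Rarb and Rarg calls at 96 h were lost in the alternatives given above.

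**Figure D2:**
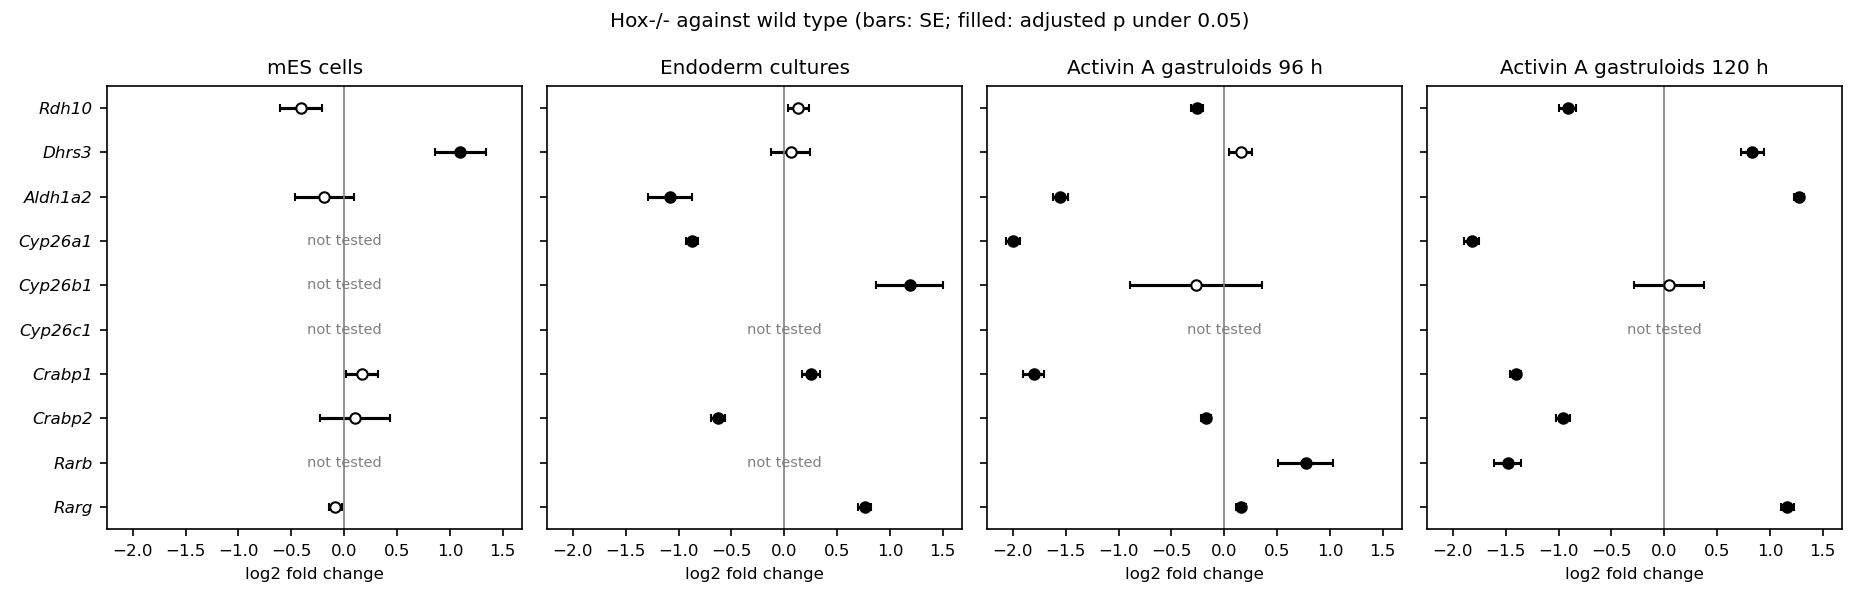
Log2 fold change of Hox-/- against wild type for each of the 10 genes in 4 cultures (horizontal axis), with the standard error as bars and filled points for an edgeR adjusted p under 0.05. Aldh1a2 sits at -1.55 at 96 h and 1.27 at 120 h in Activin A gastruloids, while Cyp26a1 sits at -2.0 and -1.82.

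The treatment comparison set wild-type Activin A gastruloids against wild-type Chiron gastruloids. At 96 h all 9 genes tested were called, 8 of them lower in Activin A, beside 61.6% of all genes called in either direction, 31.3% higher and 30.2% lower. Rdh10 was the exception, 3.43-fold higher in Activin A (log2 fold change 1.78, SE 0.0731, edgeR adjusted p 4.13e-16). The largest differences were in Crabp1 (13.7-fold, -3.78, SE 0.0798), Aldh1a2 (6.72-fold, -2.75, SE 0.0927) and Rarb (6.11-fold, -2.61, SE 0.22). At 120 h 8 of 9 were called, beside 41.9%, with 5 now higher in Activin A and 3 lower, beside 20.3% and 21.6% of all genes. Crabp1 was 3.48-fold, Aldh1a2 3.28-fold and Rarb 3.24-fold higher, so these genes changed sides between the times. Top2b, the antisense neighbour of Rarb, was lower in Activin A at 96 h and at 120 h (log2 fold changes -0.46 and -0.32). Cyp26a1 was 4.65-fold higher at 120 h, after the small 96 h difference of -0.19 whose call was lost in the alternatives given above. Rdh10 stayed higher in Activin A (2.04-fold), and Dhrs3, Rarg and Crabp2 stayed lower (1.43-fold, 2.68-fold and 1.94-fold).

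**Figure D3:**
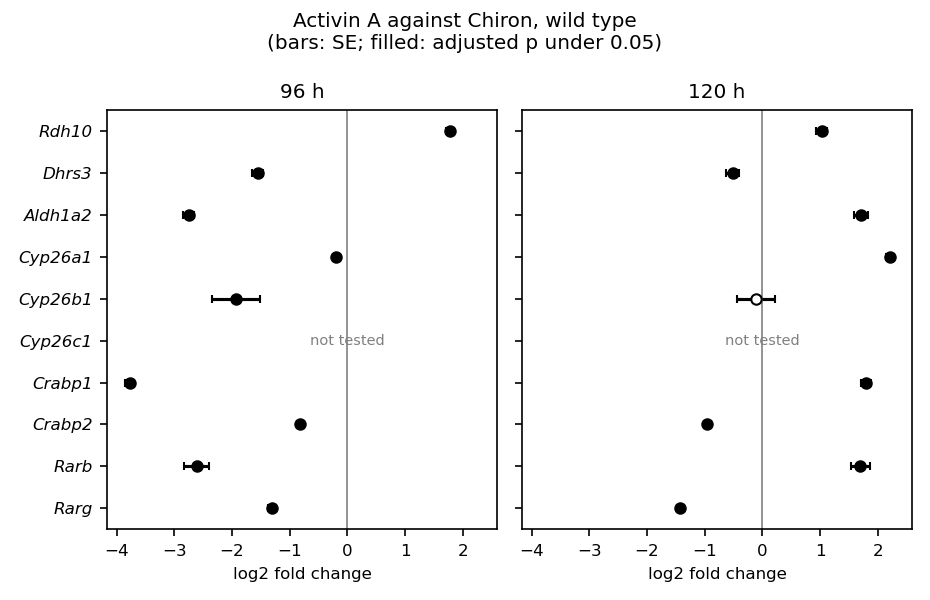
Log2 fold change of Activin A against Chiron wild-type gastruloids for each gene at 96 h and at 120 h (horizontal axis), with the standard error as bars and filled points for an edgeR adjusted p under 0.05. Aldh1a2, Crabp1 and Rarb lie left of 0 at 96 h (-2.75, -3.78 and -2.61) and right of it at 120 h (1.71, 1.80 and 1.70).

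Presomitic and somitic genes moved with this comparison too. All 8 were called lower in Activin A at 96 h (median log2 fold change -3.47) and 7 of 8 at 120 h (-0.91), so their direction did not change between the times while that of Aldh1a2, Crabp1 and Rarb did. Their part in the values at either time was not tested.

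The time comparisons called most of the genes, as they did most genes of the tables. From 96 h to 120 h, 9 of 9 were called in wild-type Activin A gastruloids, 6 higher and 3 lower, beside 74.9% of all genes (37.2% higher and 37.8% lower). The Cyp26a1 rise among them was not called in the limma fits on FPKM with 1 and 0.1 (0.2403 and 0.2442, adjusted p 0.0948 and 0.113). In Hox-/- Activin A gastruloids 9 of 9 were called, 7 higher and 2 lower, beside 72.4% (34.9% higher and 37.6% lower), with Rarg the gene that changed sides. In Chiron gastruloids 8 of 9 were called, 2 higher and 6 lower at 120 h, beside 61.7% (28.5% higher and 33.2% lower). Aldh1a2 fell 10.6-fold there (log2 fold change -3.41, SE 0.107, edgeR adjusted p 6.44e-18), Crabp1 5.79-fold and Cyp26a1 4.31-fold. Cyp26b1 (2.00-fold) and Rdh10 (1.23-fold) rose in Chiron gastruloids, both calls lost without Chiron replicate 2 at 120 h (adjusted p 0.0854 and 0.0638). The interaction of genotype and time was called for 7 of 9 genes, 4 positive (Aldh1a2, Dhrs3, Rarg, Crabp1) and 3 negative (Rdh10, Rarb, Crabp2), beside 38.9% of all genes (18.7% and 20.2%). That of treatment and time was called for 7 of 9, 6 positive and 1 negative (Rdh10), beside 39.6% (21.7% and 18%). Time and depth go together in these comparisons.

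Endoderm cultures were also set against mES cells of the same genotype. Of 8 genes tested, 6 were called in wild type, 5 of them higher and 1, Rarg, lower, beside 79.9% of all genes called (41.6% higher and 38.3% lower). The Rarg call was lost with total counts alone (log2 fold change -0.0515, edgeR adjusted p 0.473). It was also lost without wild-type endoderm replicate 1 or 2 (edgeR adjusted p 0.0788 and 0.122). Without wild-type mES replicate 1 the Rarg value was -0.106. In Hox-/- 7 of 8 were called, 6 higher and 1, Dhrs3, lower, beside 80.6% (42.7% higher and 37.9% lower). The Dhrs3 call was lost with DESeq2 (adjusted p 0.0802) and without Hox-/- endoderm replicate 3 (edgeR adjusted p 0.0546). Its value was -0.574 without Hox-/- mES replicate 1 and -0.515 without Hox-/- mES replicate 2. Rdh10 was 3.98-fold higher in wild type and 5.90-fold in Hox-/-, and Crabp1 3.58-fold and 3.87-fold. Aldh1a2 was 2.24-fold higher in wild type (log2 fold change 1.16, SE 0.234, edgeR adjusted p 0.000141) and 1.23-fold in Hox-/- (0.30, SE 0.27), the latter not called. The difference between these gains was -0.87 (SE 0.366), with an edgeR adjusted p of 0.0947. Of 8 genes, 3 had a called difference between genotypes in the change from mES cells to endoderm, 2 positive and 1 negative, beside 24.1% of all genes (11.6% and 12.5%). They were Cyp26b1, Rarg and, negative, Dhrs3, and Rarg alone was called without wild-type mES replicate 1. The Cyp26b1 call was also lost without Hox-/- mES replicate 1, and the Dhrs3 call without Hox-/- mES replicate 2.

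To compare levels between genes, CPM were divided by the length of each gene's merged exons in kilobases (kb). On that scale Rarg led in mES cells, at 19.0 ± 0.873 in wild type and 18.0 ± 0.976 CPM per kb in Hox-/- (SD, n = 2), with Crabp1 next at 10.2 ± 0.503 and 11.5 ± 2.18. Wild-type endoderm cultures held Crabp1 at 39.8 ± 5.08, Cyp26a1 at 37.9 ± 0.944 and Crabp2 at 36.5 ± 2.65 CPM per kb (SD, n = 3), which do not differ beyond their spread on this scale. In the authors' FPKM of these libraries Crabp2 was highest, at 54.5, 62.9 and 55.7. Crabp1 was at 39.7, 46.4 and 51.6 and Cyp26a1 at 39.4, 40.1 and 41.5, so the order there depends on the scale. Crabp1 led in Chiron gastruloids at 96 h (397 ± 58.0 CPM per kb) and in wild-type Activin A gastruloids at 120 h (265 ± 4.37). Crabp2 led in Chiron gastruloids at 120 h and in both Activin A groups at 96 h. In Hox-/- Activin A gastruloids at 120 h Aldh1a2 led, at 121 ± 0.149 CPM per kb (SD, n = 2), and this was the only group where it did.

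Ratios within a library set synthesis against breakdown without regard to scaling between libraries. Aldh1a2 per kb was 0.0513 to 0.0808 times Cyp26a1 in wild-type endoderm cultures and 0.0506 to 0.0781 times in Hox-/-, so breakdown was the more abundant transcript in each. In wild-type Activin A gastruloids the ratio was 0.465 to 0.473 at 96 h and 0.75 to 0.834 at 120 h. In Hox-/- it went from 0.606 to 0.700 at 96 h to between 6.48 and 7.08 at 120 h, above every other gastruloid library. Chiron gastruloids held ratios of 2.30 to 3.27 at 96 h and 1.11 to 1.14 at 120 h. These ratios restate the changes of the genes given above and were not tested again.

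The binding proteins changed places between 96 h and 120 h in gastruloids. Crabp1 per kb was 0.343 to 0.364 times Crabp2 in wild-type Activin A gastruloids at 96 h and 4.16 to 4.40 times at 120 h. In Hox-/- it was 0.10 to 0.123 times and then 2.94 to 3.34 times. In Chiron gastruloids it moved the other way, from 2.40 to 3.08 times down to 0.602 to 0.671 times. mES cells of both genotypes held 8.24 to 10.5 times as much Crabp1 as Crabp2 per kb. In the authors' FPKM those libraries held Crabp1 at 11.4 to 14.9 and Crabp2 at 1.72 to 1.95, so the size of these ratios depends on the scale.

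**Figure D4:**
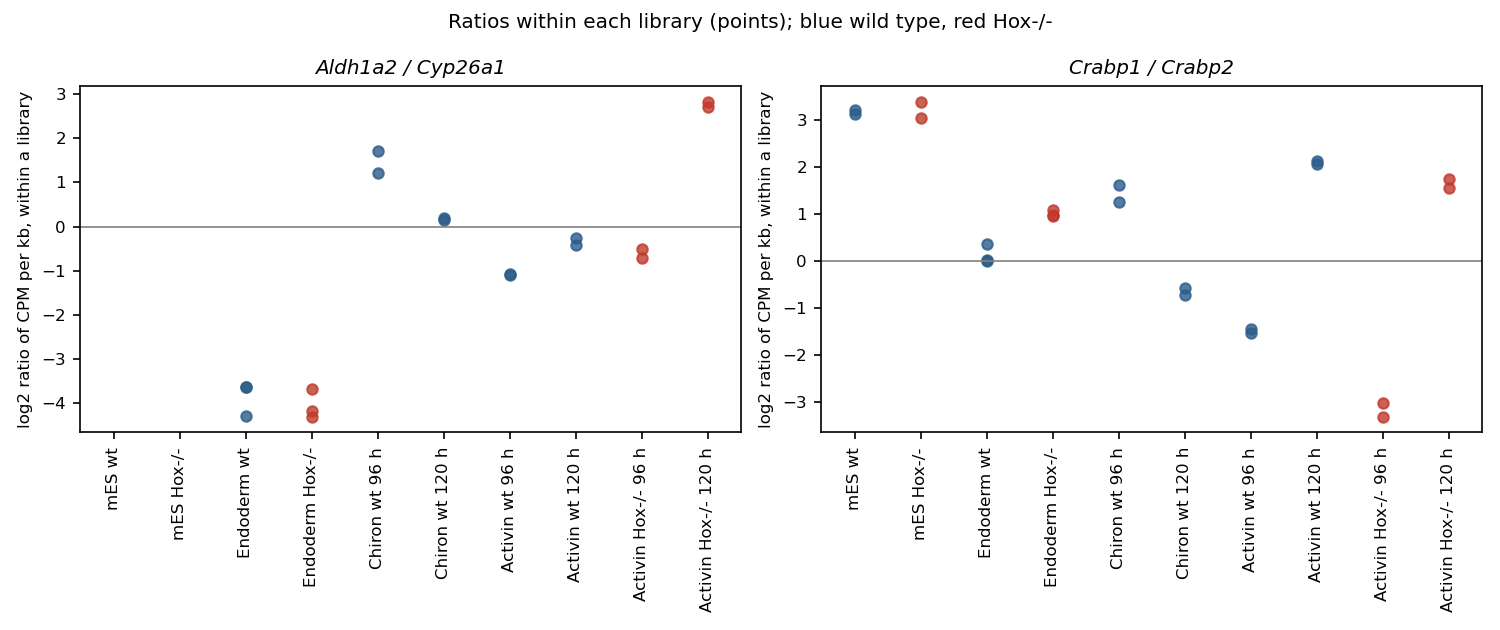
Ratio of Aldh1a2 to Cyp26a1 (left) and of Crabp1 to Crabp2 (right) within each library, from CPM per kb on a log2 scale, by group; points are libraries, blue is wild type and red is Hox-/-. mES libraries, with 4 or fewer counts of Cyp26a1, are left out of the left panel, where the Hox-/- Activin A libraries at 120 h, with ratios of 6.48 and 7.08, sit above all others.

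A further 23 genes of the retinoid pathway, which cover other dehydrogenases, retinol transport and storage, RXR partners and corepressors, were followed as a list. In Activin A gastruloids 8 of 15 tested were called between genotypes at 96 h, 2 higher and 6 lower in Hox-/-, with a median log2 fold change of -0.10, beside 38.9% of all genes called. At 120 h 13 of 15 were called, 9 higher and 4 lower, with a median of 0.18, beside 50.4% of all genes. Stra6, the cell surface receptor for retinol carried in blood, was at 15.1 and 6.45 CPM in wild type and Hox-/- at 96 h and at 76.6 and 110 CPM at 120 h (group means), changing sides as Aldh1a2 did (log2 fold changes -1.19 and 0.63, interaction 1.82, edgeR adjusted p 3e-18). Rara, the receptor not among the 10 genes, was lower in Hox-/- gastruloids (-0.31 and -0.66). In endoderm cultures 11 of 15 were called, 7 higher and 4 lower, beside 46.2% of all genes, among them Stra6 (group means of 15.7 and 51.2 CPM, wild type first, log2 fold change 1.71) and Fabp5, a further carrier of retinoic acid (58.7 and 105 CPM, 0.84). The other enzymes that can make retinoic acid, Aldh1a1 and Aldh1a3, stayed at or under group means of 0.19 and 2.03 CPM.

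Between treatments, 9 of 15 of these pathway genes were called at 96 h, 4 higher and 5 lower in Activin A, beside 61.6% of all genes, which is near the list's share. At 120 h 10 of 15 were called, 6 higher and 4 lower, beside 41.9%. Stra6 was at 15.1 CPM in Activin A and 86.7 CPM in Chiron gastruloids at 96 h (-2.58). Rxrg, an RXR partner gene, was at 16.0 and 2.77 CPM there (2.43) and fell to 0.982 CPM in wild-type Activin A gastruloids at 120 h. The list's medians were -0.12 at 96 h and 0.15 at 120 h, and those of the 10 genes were -1.56 and 1.03, against medians over all genes of 0.00 and -0.01.

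Another 10 genes known to be induced by retinoic acid were read as a list of possible responders. Between genotypes 5 of 9 tested were called at 96 h, all lower in Hox-/-, beside 38.9% of all genes (16.7% lower), with a median of -0.16. At 120 h 7 of 9 were called, 5 higher and 2 lower, beside 50.4% (24.9% higher and 25.5% lower), with a median of 0.22. Foxa1, which is also an endoderm factor and stands in the endoderm list, was the lowest at both times (-3.44 and -4.07). Nr2f1, an orphan nuclear receptor, stood at 21.1 CPM (wild type) and 5.80 CPM (Hox-/-) at 120 h (-1.76). Zfp703 was higher in Hox-/- at 120 h (1.11) and lower at 96 h (-0.49). From 96 h to 120 h, 7 of 9 genes of the list were called in wild-type Activin A gastruloids, 5 higher and 2 lower, beside 74.9% of all genes. In Hox-/- 7 of 9 were called, 7 higher and 0 lower, beside 72.4% of all genes. In wild-type Activin A gastruloids Nr2f1 rose from 0.269 to 21.1 CPM, Nr2f2 from 1.96 to 35.4 CPM and Meis1, a Hox cofactor, from 1.44 to 65.6 CPM between 96 h and 120 h. These genes rose in Hox-/- too, Meis1 from 1.45 to 83.7 CPM and Nr2f2 from 0.307 to 40.9 CPM, while Nr2f1 reached 5.80 CPM. Between genotypes the list as a whole held members on both sides at 120 h, as did the 10 genes.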

How the data were processed

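RNA-seq of 22 libraries was used as deposited. Per the labels' protocols, RNA was poly(A)-selected and libraries were made with a stranded kit. Per the submitters' processing notes, cutadapt 1.16, STAR and Cufflinks 2.2.1 were used with the mm10 build; the counting tool and its use of strand are not given in the sources used here. Raw counts per Ensembl gene were deposited as 4 tables. FPKM, which give gene symbols and positions, were made by the authors as 4 matching tables. The wild-type Activin A libraries (4) stand in both gastruloid tables with identical counts.

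Counts were tested with edgeR 4.0.16 (R 4.3.3; filterByExpr, TMM scaling, one coefficient per group, quasi-likelihood test, Benjamini-Hochberg over all genes) in 14 contrasts. The mES and endoderm tables were fitted singly for genotype and jointly for culture, and each gastruloid table over its 4 groups. CPM are counts over the library total, and lengths are merged GENCODE M21 exons. A library's floor is 3 counts. The named genes are the 10 genes, up to 4 called genes of each further list per contrast with a group mean of at least 5 CPM, and the 3 genes most alike in pattern to Aldh1a2, Cyp26a1 and Crabp1. Some genes of the further lists are not reported here. The 10 genes and the lists were chosen with earlier results of these data known. The script's statistics were tested on simulated data.

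Alternatives were RLE size factors, total counts alone, no filter on low counts, DESeq2 1.42.0, the replicate number as a block, limma 3.58.1 on log2(FPKM + 1) and on log2(FPKM + 0.1) for genes with a mean FPKM of at least 0.5, and each library left out.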

Additional observations from a re-analysis of the deposited data

Results flagged for a closer look

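The results below stand out because an effect differed between groups of the study, by an edgeR test of the difference itself. All values are differences of log2 fold changes.

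In Activin A gastruloids the change from 96 h to 120 h differed between Hox-/- and wild type for 7 of 9 genes tested, beside 38.9% of all genes. It was more positive in Hox-/- for Aldh1a2 by 2.82, Rarg by 1.01, Dhrs3 by 0.68 and Crabp1 by 0.40. It was more negative in Hox-/- for Rarb (-2.25), Crabp2 (-0.79) and Rdh10 (-0.66). For Aldh1a2 the genotype difference also changed sign between the times, and so it did for Rarb, whose antisense neighbour Top2b had a difference of 0.22 in the same contrast. The Rarb call at 96 h was lost in the alternatives given above. Its value there was 0.49 without wild-type replicate 1 and 0.63 without Hox-/- replicate 2. Top2b was higher in Hox-/- at 96 h as well, by 0.30.

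In wild-type gastruloids the change with time differed between Activin A and Chiron for 7 of 9 genes, beside 39.6% of all genes. It was more positive in Activin A for Crabp1 by 5.58, Aldh1a2 by 4.46, Rarb by 4.31, Cyp26a1 by 2.41, Cyp26b1 by 1.83 and Dhrs3 by 1.04, and more negative for Rdh10 (-0.75). The Cyp26b1 value rests on 5 and 10 counts in the Activin A libraries at 96 h and was not called without replicate 1 of Activin A at 96 h or at 120 h (adjusted p 0.0593 and 0.116), or by DESeq2 (0.0718).

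Between mES cells and endoderm cultures the change differed between genotypes for Cyp26b1 (3.53), Rarg (0.87) and Dhrs3 (-1.01). These are 3 of 8 genes tested, beside 24.1% of all genes. The Cyp26b1 and Dhrs3 values were not called without wild-type mES replicate 1, where they were 3.06 and -0.74. Cyp26b1 was also not called without Hox-/- mES replicate 1 (2.51). Dhrs3 was also not called without Hox-/- mES replicate 2 (-0.99) or by DESeq2 (-1.03, adjusted p 0.0816). Hox-/- mES cells held 2 counts of Cyp26b1, so its fitted difference has no firm size.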

How the results depend on the processing

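Of the counts of called genes, 2 moved by more than 1.5 times. In mES cells 1 gene (Dhrs3) was called between genotypes and 0 with DESeq2, with limma on log2(FPKM + 1) or on log2(FPKM + 0.1), or without wild-type replicate 1 (0 to 1 over the libraries left out). For the difference between genotypes in the change from mES cells to endoderm, 3 genes were called and 1 without wild-type mES replicate 1 (1 to 4 over the libraries left out). Over all genes, the calls between genotypes in mES cells were 3168 with edgeR and 944 with DESeq2, and 286 and 336 in the limma fits. Values that changed sign were all of genes not called. Dhrs3 between genotypes in Activin A gastruloids at 96 h was -0.0177 and -0.0206 in the limma fits with 1 and 0.1, and Cyp26b1 at 120 h was -0.0673 with total counts alone. Scaling by total counts moved the median of all genes by -0.111 for genotype at 120 h, by 0.104 for time in Chiron gastruloids and by 0.117 for culture in wild type. The replicate number as a block changed no call among the 119 results of these genes. Same-numbered libraries deviated together only weakly (correlation -0.0701 to 0.106). In groups of 2 libraries the deviations mirror each other, so these values cannot decide whether the numbers pair the samples. Removing single libraries reversed 13 values, of genes not called. Over the libraries left out, the genotype difference of Crabp1 in mES cells ran from -0.0531 to 0.3416, that of Dhrs3 in endoderm cultures from -0.0389 to 0.1387, and that of Cyp26b1 in Activin A gastruloids from -0.5822 to 0.2002 at 96 h and from -0.3493 to 0.5881 at 120 h. The treatment difference of Cyp26b1 at 120 h ran from -0.6387 to 0.2819, the time difference of Rarb in Chiron gastruloids from -0.0782 to 0.5296, and the genotype by time difference of Cyp26b1 from -0.1549 to 0.8564. The genotype by culture differences ran from -2.2579 to 2.9487 for Cyp26a1 and from -0.0653 to 0.3119 for Crabp1. Genes with few counts (Cyp26b1, Cyp26c1, Rarb in mES and endoderm cultures) are limited by depth. The cause of these shifts was not tested.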

Other observations

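The genes most alike to Aldh1a2, Cyp26a1 and Crabp1 in pattern were taken from 13272 genes by Pearson correlation of log2(CPM + 1) group means over the 10 groups. The points share cultures, depth and library preparation, and the values are a description. For Aldh1a2 they were Chrna3 (0.974), Zbtb22 (0.970) and Pcdh8 (0.961), and Pcdh8 reached 189 CPM in Hox-/- Activin A gastruloids at 120 h, its highest group. For Cyp26a1 they were Igfbpl1 (0.981), Snhg18 (0.978) and Egflam (0.978). For Crabp1 they were Draxin (0.934), Krba1 (0.933) and Zbtb39 (0.931). Among the 10 genes, Aldh1a2 and Dhrs3 had a correlation of 0.923 over the 10 groups, above that of Aldh1a2 and Cyp26a1 (0.658).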
